A study of Mus musculus with 9 samples.

Results

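The genes of fatty-acid oxidation, lipolysis and their control by the PPAR nuclear receptors were followed in the whole mouse ovary across 3 diet groups. The set was a list of 37 genes chosen by their function, and each was read from the row of the expression table that carries its symbol, with the row of highest mean level taken where a symbol had several. Of the 37, 36 reached 1 FPKM in at least 1 group (fragments per kilobase of transcript, relative to all mapped fragments) and are called measured. They stood among 13737 gene rows that met the same minimum, in a table of 33450 rows. The 36 were 19 mitochondrial enzymes and carriers, 3 peroxisomal enzymes, 2 enzymes found in both organelles, 3 lipases, 4 acyl-CoA synthetases, 1 cytosolic thioesterase, and 4 genes that control this metabolism or answer to it.

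Ovaries came from 9 C57BL/6J mice, an inbred strain, all 15 weeks old. The Control group ate standard chow with 16% fat. The other 6 mice received feed with 60% fat during 10 weeks, after which 3 were lean (HFLN) and 3 were obese (HFOB). The animals thus entered HFLN or HFOB through their own response to the feed and not by assignment, and nothing but the diet and that response separates the groups in the labels. The deposited table gives 1 FPKM for each group of 3 animals, with a lower and an upper bound. It holds no value of a single animal, so the values below have no SD and no test, and how many animals carry a difference is unknown. The 2 comparisons with Control use the same Control values.

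Fatty acids stored as triglyceride are released by lipases, joined to coenzyme A by acyl-CoA synthetases, and carried into mitochondria as carnitine esters. There, beta-oxidation shortens the chain in repeated rounds of dehydrogenation, hydration, a second dehydrogenation and thiolysis, and the electrons pass to the respiratory chain. Peroxisomes shorten very long and branched chains with their own enzymes. PPARA and PPARD are receptors that bind fatty acids and raise the transcription of many of these genes. In the ovary, fatty-acid oxidation in cumulus cells and the oocyte is known to support oocyte maturation, and lipid droplets of steroid-forming cells hold cholesterol esters that feed hormone synthesis.

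The members had nearly the same level in the 3 groups. For each member, the highest of its 3 group values was divided by the lowest. The median of this ratio was 1.08 over the 36 members, and 23 of them stayed within 10%. The widest ratio was 1.27, for Cpt2. Over all 13737 rows the median ratio was 1.13, and over rows of at least 5 FPKM in any group it was 1.11. The deposited intervals of the 36 members overlapped in each of the 3 comparisons. These intervals are wide: they reached a median of 36.5% to either side of the value, from 33.1% to 68.6% depending on the gene. At that width, a median fold of 2.15 between groups is needed before a member's intervals separate, from 1.99 to 5.38. Smaller differences were not resolvable in this table, so a flat value here is not a shown absence of change. In RNA of a whole ovary, fewer cells of a type and less RNA per cell cannot be told apart.

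**Figure D1:**
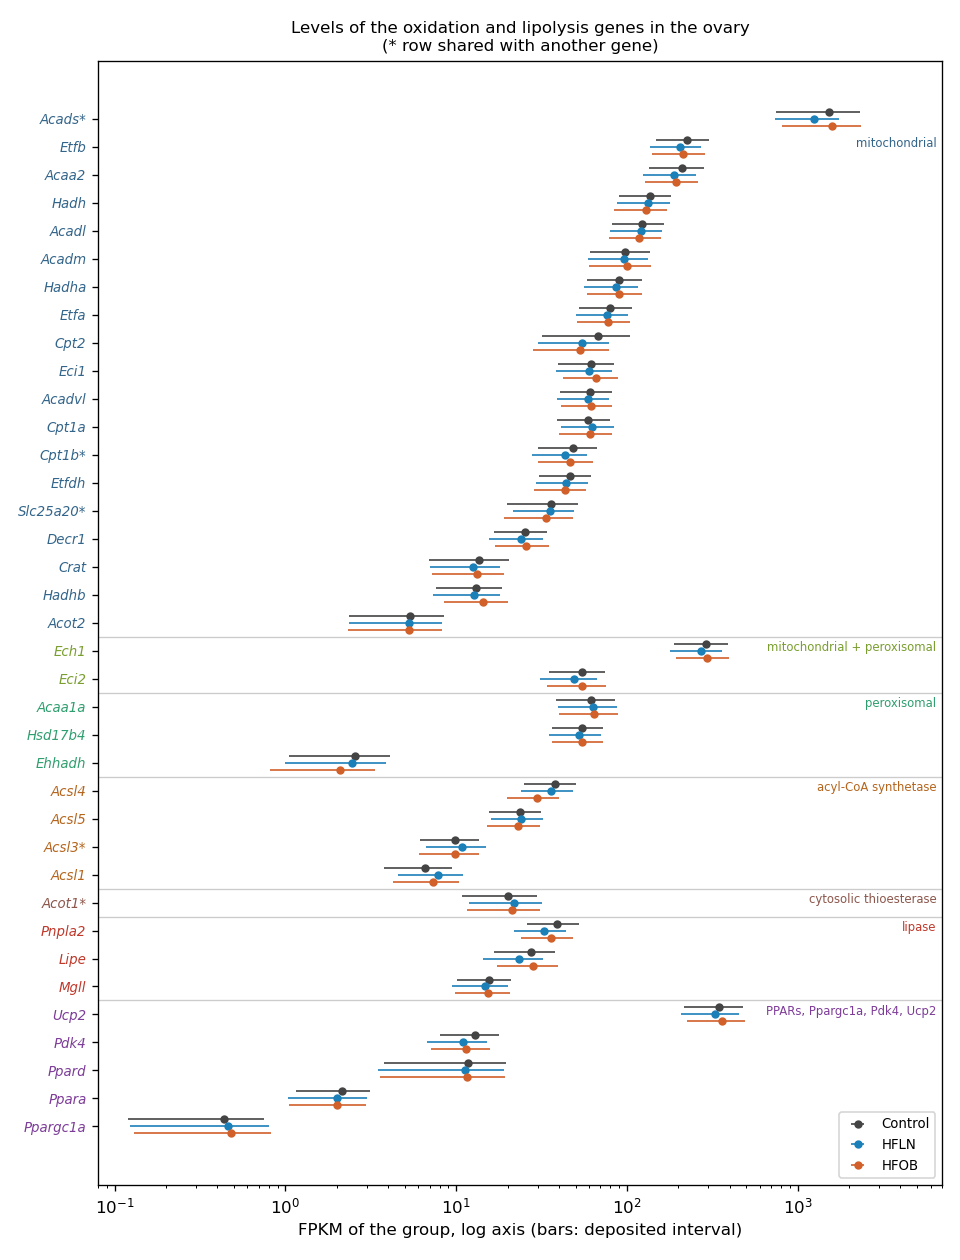
FPKM of the 36 measured members and of Ppargc1a, below 1 FPKM, on a log axis by class, with a point for each group (Control, HFLN, HFOB) and a bar for the deposited interval; an asterisk marks a row shared with another gene. The 3 points of each gene lie close together and the bars overlap throughout, from Acads (1243 to 1581 FPKM) down to Ppara (2.00 to 2.16 FPKM).

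Differences between groups are given as log2 of the ratio of (FPKM + 1), which understates low genes, and 0.3 on this scale was used as the mark of a difference worth counting. No member was higher than Control by 0.3 in HFLN, where 5.17% of all rows were, and 1 member, Cpt2, was lower by that much, against 6.81% of all rows. In HFOB, again no member was higher than Control by 0.3, against 2.67% of all rows, and 2 members, Cpt2 and Acsl4, were lower, against 5.86%. Between the 2 groups on the high-fat feed, 1 member row, that of Acads, was higher in HFOB, against 3.22% of all rows, and none was lower, against 5.02%. The stricter rule, a log2 difference of at least 1 with separate intervals, took in none of the members. Of all rows it took in 0.189% for HFLN against Control, 0.306% for HFOB against Control and 0.146% for HFOB against HFLN. Read against these shares, the counts of members were near or below the background in every comparison.

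The small differences leaned towards lower values in HFLN. There, 30 of 36 members were below Control, with a median log2 difference of -0.06, while 49.3% of all rows were lower and their median was 0.0025. Among rows of at least 5 FPKM, a range closer to that of the members, 54.3% were lower with a median of -0.014. In HFOB, 20 of 36 members were below Control, with a median of -0.03, beside 53.4% of all rows and a median of -0.011. From HFLN to HFOB, 22 members were higher and 14 lower, with a median of 0.04, beside 53.1% of all rows lower and a median of -0.0093. The lowest of the 3 values lay in HFLN for 21 members (58.3%, beside 32.3% of all rows), in HFOB for 11 (30.6%, beside 33.5%) and in Control for 4 (11.1%, beside 34.1%). Among rows of at least 5 FPKM, the lowest value lay in HFLN for 36.3%, in HFOB for 33.1% and in Control for 30.6%. The direction in HFLN depends on which scaling is used. Scaling by the median ratio of each group to the mean of the groups, over 9745 rows, kept the direction. It left 29 of 36 members below Control with a median of -0.039, beside 44.5% of all rows and a median of 0.019. When each group was scaled to the total FPKM of rows with a gene symbol, the ratio of HFLN to Control moved up by 0.22 on the log2 scale. The members' median then became 0.15, with 5 of 36 below Control, beside a median of 0.20 over all rows, 14.0% of which were below Control. Directions given below are those of the deposited values unless a scaling is named.

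**Figure D2:**
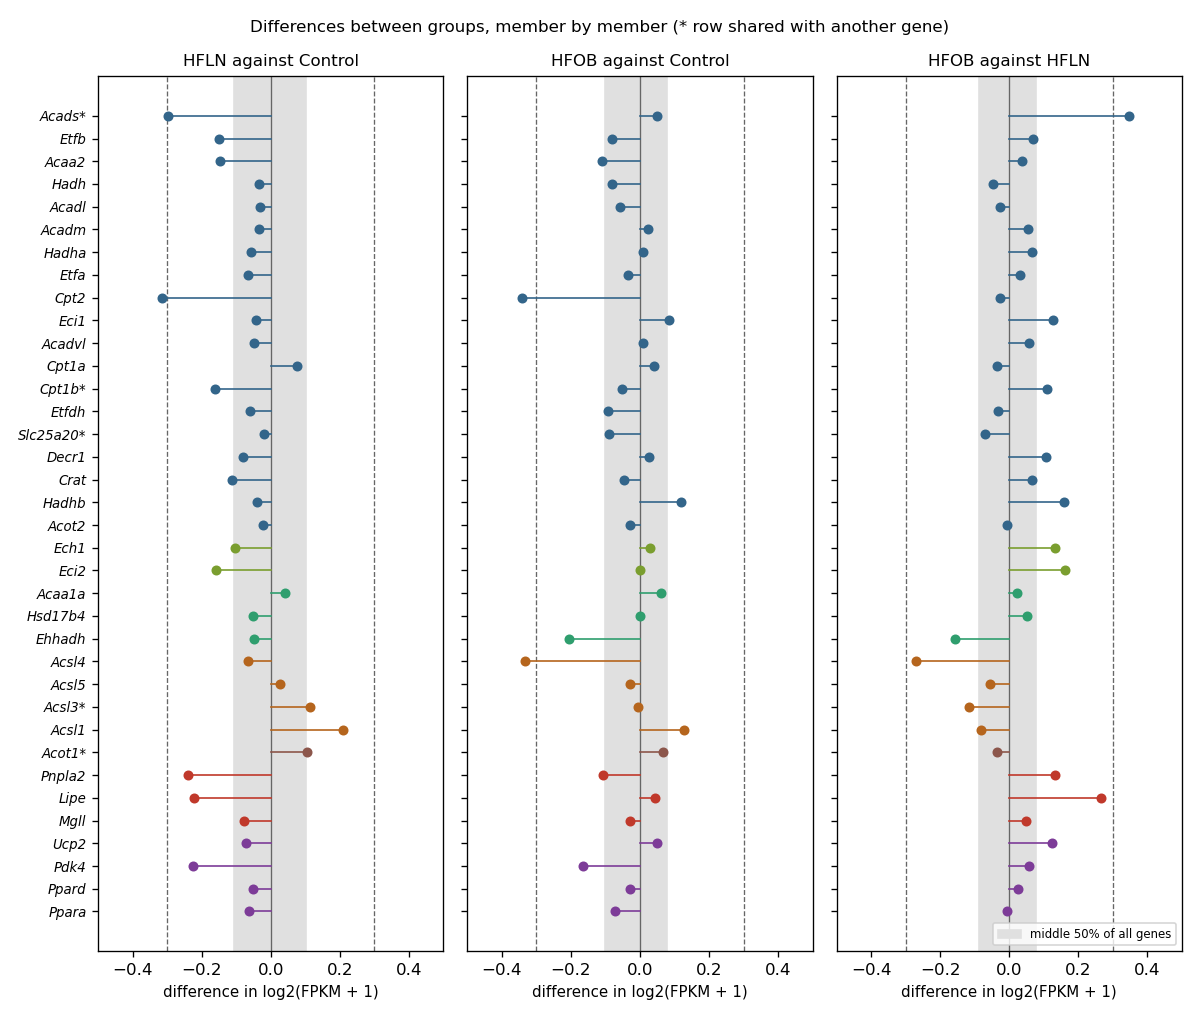
Log2 difference of (FPKM + 1) for each of the 36 members in the 3 comparisons, by class, with the middle 50% of all 13737 rows shaded and dashed lines at -0.3 and 0.3. Most points for HFLN against Control lie a little left of 0 (median -0.06), and the points past 0.3 are Cpt2, Acsl4 and the Acads row.

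Entry of long chains into mitochondria runs through CPT1, the carnitine-acylcarnitine carrier SLC25A20 and CPT2. Cpt1a, the form of the rate-setting outer-membrane enzyme that is common outside muscle, stood at 59.4 FPKM (interval 39.0 to 79.9) in Control, 62.7 (40.9 to 84.4) in HFLN and 61.1 (40.0 to 82.3) in HFOB. It was the only member of the 19 mitochondrial ones that was not lower in HFLN than in Control. Cpt2, which turns the carnitine ester back into acyl-CoA inside the mitochondrion, stood at 67.9 FPKM (31.9 to 104) in Control, 54.4 (30.1 to 78.7) in HFLN and 53.3 (28.1 to 78.5) in HFOB. Both high-fat groups were thus lower, by 19.9% and 21.5%, with log2 differences of -0.31 and -0.34, and the 3 intervals overlapped over most of their width. Cpt2 lies on chromosome 4, 107903982 to 107923589 (GRCm38.p6). The row of Slc25a20, shared with its neighbour Prkar2a, a regulatory subunit of protein kinase A, stood at 35.9, 35.4 and 33.7 FPKM in the order Control, HFLN, HFOB. The row of Cpt1b, the muscle form, is shared with Chkb, a choline kinase gene next to it, and with Gm44502, and stood at 48.4, 43.2 and 46.6 FPKM. Because of the sharing, how much of either row belongs to the member is unknown. Crat, which moves short acyl groups between carnitine and coenzyme A, stood at 13.7, 12.6 and 13.2 FPKM, in a row that extends 8.22 kb beyond the gene.

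The acyl-CoA dehydrogenases, which open each round and differ in the chain length they take, were level across groups where their row was their own. Acadvl, for very long chains, stood at 60.9 FPKM (40.5 to 81.3) in Control, 58.8 (39.2 to 78.4) in HFLN and 61.3 (40.9 to 81.7) in HFOB. Acadl, for long chains, stood at 123, 120 and 118 FPKM. Acadm, for medium chains, stood at 98.1, 95.8 and 99.6 FPKM. Each of these 3 varied by less than 5% between groups. Acads, for short chains, had the highest value of all members, 1528 FPKM (749 to 2306) in Control, 1243 (738 to 1747) in HFLN and 1581 (809 to 2353) in HFOB. Its row, on chromosome 5, also spans the adjoining gene Rpl37rt, a copy of a ribosomal protein gene (115102922 to 115110268, beside Acads at 115110299 to 115119346), and the share of the signal from each gene is unknown. The log2 difference of 0.35 between HFOB and HFLN in that row is therefore not a measurement of Acads alone.

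The later steps were also level. Hadha and Hadhb encode the subunits of the trifunctional protein, which carries out the last steps for long chains. Hadha stood at 89.9 FPKM (58.1 to 122) in Control, 86.4 (56.1 to 117) in HFLN and 90.4 (58.1 to 123) in HFOB. Hadhb stood at 13.1 FPKM (7.62 to 18.6) in Control, 12.7 (7.33 to 18.1) in HFLN and 14.3 (8.45 to 20.2) in HFOB. The FPKM of Hadha was thus 6.86, 6.79 and 6.32 times that of Hadhb, although the protein holds both subunits. The Hadha row extends 15.8 kb beyond the annotated gene, and the part of this in the ratio was not tested. The genes lie head to head on chromosome 5, Hadha at 30119423 to 30154980 and Hadhb at 30155253 to 30184593, with start sites 273 bases apart. They therefore have nearly a common promoter, and the window from 250 bases before to 50 after a start site is shared over 228 bases. The Hadhb window, chr5:30155003-30155302 on the + strand (RefSeq, GRCm38.p6), is shown because it holds the stretch between the 2 start sites nearly whole, and the capitals mark the bases that lie in the Hadha window as well, chr5:30154931-30155230 on the - strand.
Hadhb: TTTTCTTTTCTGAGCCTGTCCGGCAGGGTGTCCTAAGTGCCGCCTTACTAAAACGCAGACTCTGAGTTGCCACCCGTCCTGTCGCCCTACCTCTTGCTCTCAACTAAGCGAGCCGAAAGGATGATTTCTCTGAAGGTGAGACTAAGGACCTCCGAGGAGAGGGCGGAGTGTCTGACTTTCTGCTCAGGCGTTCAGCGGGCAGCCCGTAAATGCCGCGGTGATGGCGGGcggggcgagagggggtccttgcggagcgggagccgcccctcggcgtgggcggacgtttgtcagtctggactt

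Of the single-function enzymes of the same steps, Hadh, the dehydrogenase for shorter chains, stood at 136, 133 and 129 FPKM in Control, HFLN and HFOB. Acaa2, the mitochondrial thiolase, stood at 209 FPKM (135 to 282) in Control, 189 (124 to 253) in HFLN and 193 (127 to 260) in HFOB. The isomerase and reductase that prepare unsaturated chains were level too, with Eci1 at 61.9, 60.0 and 65.6 FPKM and Decr1 at 25.3, 23.9 and 25.8 FPKM. Electrons leave the dehydrogenases through the flavoprotein ETF, whose subunit genes Etfa (79.7, 76.1 and 77.8 FPKM) and Etfb (226, 204 and 214 FPKM) were both highest in Control. Etfdh, which passes the electrons on to ubiquinone, stood at 46.2, 44.2 and 43.2 FPKM. Acot2, a mitochondrial thioesterase that frees fatty acids from coenzyme A, stood at 5.40, 5.30 and 5.27 FPKM. Over the 19 mitochondrial members, 18 were lower in HFLN than in Control and 11 were lower in HFOB, with median log2 differences of -0.06 and -0.03, which became 0.159 and 0.049 when scaled to the total of rows with a symbol. Summed over the 16 mitochondrial members with a row of their own, the FPKM were 1315 in Control, 1238 in HFLN and 1264 in HFOB.

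Ech1 and Eci2, which handle double bonds in both mitochondria and peroxisomes, stood at 290, 270 and 296 FPKM and at 54.8, 49.0 and 54.9 FPKM in Control, HFLN and HFOB. Both were lowest in HFLN and nearly equal in the other groups, but under the scaling to rows with a symbol their log2 differences of HFLN from Control were 0.12 and 0.05. The peroxisomal enzymes did not share a direction. Acaa1a, a peroxisomal thiolase, stood at 61.9, 63.6 and 64.6 FPKM. Hsd17b4, which hydrates and dehydrogenates very long and branched chains, stood at 54.6, 52.7 and 54.6 FPKM. Ehhadh, the bifunctional enzyme of the classical PPARA-responsive route in liver, was low, at 2.56 FPKM (1.05 to 4.07) in Control, 2.44 (1.00 to 3.89) in HFLN and 2.09 (0.816 to 3.37) in HFOB. The median log2 difference of the 3 peroxisomal members was -0.05 in HFLN and 0.00036 in HFOB, beside -0.06 and -0.03 for the mitochondrial members. With 3 peroxisomal members these medians moved with the choice of summary, and the means were -0.020 and -0.048.

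The lipases that take triglyceride apart in sequence were all lowest in HFLN as deposited, and under the scaling to rows with a symbol Mgll no longer was (log2 difference from Control 0.13). Pnpla2, the gene of adipose triglyceride lipase, which removes the first fatty acid, stood at 39.0 FPKM (25.9 to 52.1) in Control, 32.9 (21.8 to 44.0) in HFLN and 36.1 (24.1 to 48.2) in HFOB. Lipe, the gene of hormone-sensitive lipase, which cleaves diglyceride and, in steroid-forming cells, cholesterol esters, stood at 27.4 FPKM (16.7 to 38.1) in Control, 23.4 (14.4 to 32.3) in HFLN and 28.3 (17.3 to 39.3) in HFOB. Mgll, the monoglyceride lipase gene, stood at 15.6, 14.7 and 15.3 FPKM. The log2 differences of HFLN from Control were -0.24 for Pnpla2, -0.22 for Lipe and -0.08 for Mgll, with a median of -0.22, and those of HFOB from Control were -0.11, 0.04 and -0.03. With the groups scaled to the total of rows with a symbol, the median for HFLN was -0.011. The summed FPKM of the 3 lipases was 82.0 in Control, 71.0 in HFLN and 79.7 in HFOB. The Lipe row extends 171 kb beyond the annotated gene (chromosome 7, 25379527 to 25398486), so its value may hold signal from elsewhere, while the Pnpla2 row matches its gene (chromosome 7, 141455188 to 141460743).

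Adipocytes express these lipases strongly, and fat adheres to the ovary, so adipocyte markers were read beside them. All 10 listed markers had a row, with 9, 9 and 10 of them at 1 FPKM or more in Control, HFLN and HFOB, and none under 0.1 FPKM. Their summed FPKM was 260 in Control, 244 in HFLN and 299.6 in HFOB. Much of the sum came from Cfd (103, 86.4 and 62.2 FPKM), whose row extends 671 kb beyond the gene and whose lower bounds were 0, and from Fabp4 (77.2, 87.2 and 139 FPKM). Leaving out Cfd gave sums of 157, 158 and 237 FPKM (order Control, HFLN, HFOB). Leaving out Fabp4 instead gave 183, 157 and 160 FPKM. With any other single marker left out, the sum stayed lower in HFLN than in Control. Retn and Adrb3 were lower in HFLN, with log2 differences from Control of -0.58 and -0.41, as were Adipoq, Plin1, Cfd, Cidec and Pck1. Fabp4, Lpl and Lep were higher there. Adiponectin (Adipoq) stood at 14.7 FPKM (7.39 to 22.1) in Control, 11.9 (5.52 to 18.2) in HFLN and 21.5 (11.6 to 31.3) in HFOB. Plin1, which coats the adipocyte lipid droplet, stood at 13.0, 10.6 and 12.3 FPKM, and leptin (Lep) at 0.223, 0.332 and 2.1 FPKM. The interval of Lep in HFOB (0.759 to 3.44) lay above those of Control (0 to 0.455) and HFLN (0.0392 to 0.625). The part of adipocyte RNA in the lipase values was not tested.

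**Figure D3:**
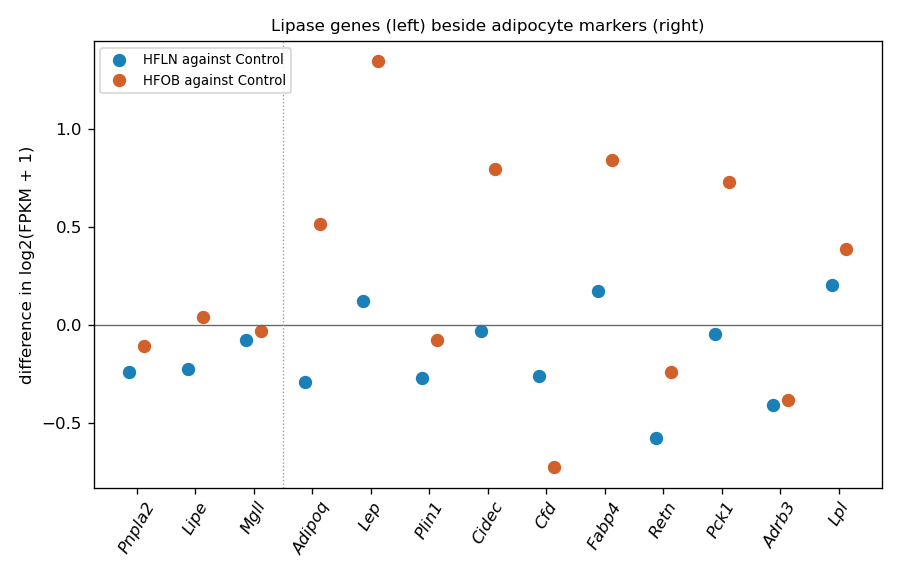
Difference in log2(FPKM + 1) from Control for the 3 lipases, left of the dotted line, and the 10 adipocyte markers, right of it, with a point each for HFLN and HFOB. The lipases lie between -0.24 and 0.04, while the markers spread from -0.72 (Cfd in HFOB) to 1.34 (Lep in HFOB) and do not share a direction.

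The acyl-CoA synthetases, which activate fatty acids for oxidation or for storage, went the other way in HFLN as deposited. Of these, 3 of 4 were above Control, and all 4 were lower in HFOB than in HFLN. This contrast in direction depends on the scaling. Under the scaling to rows with a symbol, only 5 of all 36 members were below Control in HFLN, and 29 were lower in HFOB than in HFLN. Acsl4, which prefers arachidonic acid and is known for its role in steroid-forming cells, stood at 37.8 FPKM (25.0 to 50.6) in Control, 36.1 (23.8 to 48.4) in HFLN and 29.8 (19.8 to 39.8) in HFOB. HFOB was lower than Control by 21.2% and lower than HFLN by 17.5%, with log2 differences of -0.33 and -0.27, and the intervals overlapped. Acsl4 lies on chromosome X, 142317993 to 142390802. Acsl1, the main form in fat and heart, stood at 6.61 FPKM (3.80 to 9.41) in Control, 7.80 (4.57 to 11.0) in HFLN and 7.31 (4.26 to 10.4) in HFOB. Its log2 difference of 0.21 between HFLN and Control was the largest in that direction among the members. Acsl3, found on lipid droplets and the endoplasmic reticulum, shares its row with Utp14b and stood at 9.88, 10.8 and 9.84 FPKM. Acsl5 stood at 23.6, 24.0 and 23.1 FPKM. Acot1, the cytosolic thioesterase, shares its row with Acot6 and stood at 20.2, 21.8 and 21.2 FPKM.

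The receptors stood at low levels and varied little. Ppara, the receptor best known for driving fatty-acid oxidation in liver, stood at 2.16 FPKM (1.16 to 3.15) in Control, 2.02 (1.04 to 2.99) in HFLN and 2.00 (1.05 to 2.96) in HFOB. Ppard, the broadly expressed form, stood at 11.7 FPKM (3.78 to 19.7) in Control, 11.3 (3.47 to 19.1) in HFLN and 11.5 (3.58 to 19.4) in HFOB, in a row that extends 105 kb beyond the gene. Ppargc1a, the coactivator PGC-1alpha that raises oxidative programmes in muscle and brown fat, was the member below the minimum, at 0.435, 0.460 and 0.479 FPKM. Pdk4, a PPAR target whose kinase closes pyruvate dehydrogenase and so spares glucose when fat is burned, stood at 12.9 FPKM (8.09 to 17.8) in Control, 10.9 (6.78 to 15.1) in HFLN and 11.4 (7.13 to 15.7) in HFOB. Pdk4 was thus lower on the high-fat feed in both groups, with log2 differences of -0.22 and -0.17 and overlapping intervals. Ucp2, an inner-membrane carrier of the uncoupling protein family, was abundant, at 346 FPKM (216 to 477) in Control, 329 (206 to 452) in HFLN and 359 (223 to 494) in HFOB.

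Promoter windows of 300 bases were found in RefSeq for 31 of the 36 measured members, as 34 windows. They were searched on both strands for the direct repeat that PPAR receptors bind with their partner RXR, written AGGTCANAGGTCA. None of the 31 members held it exactly or with 1 mismatch, where 0.0396% and 0.554% of all 32851 windows did. With 2 mismatches allowed, 2 members held it, Slc25a20 and Etfa, in 2 of the 34 windows, and 3.86% of all windows did. The half-site with its extension TCAAGGTCA, which oestrogen-related receptors bind and which can overlap the direct repeat, was in none of the members exactly (0.423% of all windows) and in 2 with 1 mismatch, Acsl5 and Ech1 (7.46%). For the rarer matches, 34 windows are too few for a count of 0 to show a lack of sites. These counts describe letters in a short window only, and many sites bound by PPAR lie elsewhere. The windows of the members with the nearest matches are shown with the match in capitals. That of Slc25a20 is chr9:108661886-108662185 on the + strand, with the match at bases 7 to 19 after the start site. That of Etfa is chr9:55512194-55512493 on the - strand, with the match read on the opposite strand as AGGGCAAAGGTAA, at bases -77 to -65. Both are from RefSeq on GRCm38.p6 and read 5′ to 3′ along the gene.
Slc25a20: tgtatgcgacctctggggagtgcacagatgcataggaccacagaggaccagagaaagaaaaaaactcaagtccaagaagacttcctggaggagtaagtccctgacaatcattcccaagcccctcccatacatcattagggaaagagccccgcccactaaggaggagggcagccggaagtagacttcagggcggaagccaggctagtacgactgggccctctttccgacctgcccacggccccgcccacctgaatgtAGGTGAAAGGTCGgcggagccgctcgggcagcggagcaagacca
Etfa: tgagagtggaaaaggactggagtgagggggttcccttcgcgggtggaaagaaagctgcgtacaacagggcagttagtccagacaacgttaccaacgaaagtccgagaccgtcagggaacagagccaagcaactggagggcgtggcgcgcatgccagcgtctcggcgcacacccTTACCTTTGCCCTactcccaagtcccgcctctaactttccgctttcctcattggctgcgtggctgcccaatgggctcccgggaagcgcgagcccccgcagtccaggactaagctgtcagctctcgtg

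Genes of the same pathways outside the 37 were read from further lists, some genes standing in more than 1, and in none did a row pass the rule of a log2 difference of at least 1 with separate intervals. The counts past 0.3 below stand beside 5.17% of all rows higher and 6.81% lower in HFLN, and 2.67% and 5.86% in HFOB. Of 17 other mitochondrial oxidation genes measured, the median log2 difference from Control was -0.03 in HFLN and -0.02 in HFOB, beside the members' -0.06 and -0.03, and 0 genes were past 0.3 in either direction. The widest was Acot9, a thioesterase, at 14.2, 11.8 and 12.2 FPKM, then Hsd17b10, a dehydrogenase of short and branched chains, at 172, 146 and 170 FPKM. Of 14 other peroxisomal genes, the medians were 0.03 and -0.02, and past 0.3 there were 0 in HFLN and in HFOB 1 higher, Abcd2, and 1 lower, Acox2. Acox2, the oxidase for branched chains and bile acid precursors, stood at 3.08, 3.95 and 1.93 FPKM, and Abcd2, a peroxisomal importer, at 3.15, 3.66 and 4.11 FPKM. Of 5 ketone body genes, the medians were 0.01 and -0.0061, and 1, Bdh2, was past 0.3, higher in HFOB. Bdh2 stood at 11.8, 11.7 and 14.9 FPKM, with lower bounds of 0, and Bdh1, which interconverts the ketone bodies, at 3.37, 3.61 and 2.84 FPKM.

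Of 10 measured partners of lipolysis, 2 in HFLN and 4 in HFOB were above Control by 0.3, beside 5.17% and 2.67% of all rows, and 0 were below, beside 6.81% and 5.86%, with median log2 differences of 0.04 and 0.19. Plin5, which sits on lipid droplets, binds the triglyceride lipase and ties droplets to mitochondria, stood at 5.34 FPKM (2.29 to 8.40) in Control, 11.8 (6.09 to 17.4) in HFLN and 9.54 (4.78 to 14.3) in HFOB. Its log2 differences were 1.01 and 0.73, and the intervals overlapped. The row of the carboxylesterase Ces1d, shared with Ces1e and Ces1f, stood at 28.2, 45.1 and 36.0 FPKM, its lower bounds being 0. Plin2, the general droplet coat protein, stood at 77.5, 83.2 and 95.9 FPKM in a row that extends 46.9 kb beyond its gene, and Lpl, the lipoprotein lipase and an adipocyte marker, at 22.3, 25.8 and 29.4 FPKM. Plin5 and Ces1d were past 0.3 in HFLN, and these 4 genes were in HFOB. Of the others, Hilpda, an inhibitor of the triglyceride lipase, was lower in both (log2 difference -0.28 in each), as were Plin1 (-0.27 and -0.08) and Abhd5, the coactivator of that lipase (-0.19 and -0.15). G0s2, another inhibitor of it, stood at -0.11 in HFLN and 0.29 in HFOB.

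Among 10 PPAR partners and coregulators, the medians were -0.04 in HFLN and 0.0017 in HFOB, with 1 gene, Pparg, lower by 0.3 in HFLN, 2, Pparg and Pprc1, in HFOB, and 0 higher. Of all rows, 6.81% were lower by 0.3 in HFLN and 5.86% in HFOB, and 5.17% and 2.67% were higher. Pparg, the receptor of fat-cell formation that granulosa cells also express, stood at 33.6 FPKM (21.6 to 45.5) in Control, 24.8 (15.2 to 34.3) in HFLN and 24.6 (15.1 to 34.1) in HFOB. Pprc1, a relative of PGC-1alpha, stood at 16.4, 13.4 and 12.9 FPKM. Both were lower in both high-fat groups, with log2 differences for Pparg of -0.42 and -0.43 and overlapping intervals. Of 8 other PPAR targets, the medians were 0.04 and 0.14, with 1 higher (Vnn1) and 1 lower (Fabp3) by 0.3 in HFLN, and 3 higher (Cidec, Plin2 and Creb3l3) and 1 lower (Fabp3) in HFOB, beside the same shares of all rows, 5.17% and 6.81% in HFLN and 2.67% and 5.86% in HFOB. Cidec, a lipid droplet protein of fat cells and 1 of the adipocyte markers, stood at 5.90 FPKM (2.42 to 9.39) in Control, 5.75 (2.43 to 9.07) in HFLN and 11.0 (5.36 to 16.6) in HFOB. The muscle-type fatty-acid binding protein Fabp3 stood at 10.6, 6.06 and 7.06 FPKM, its row extends 45.6 kb beyond the gene, and its lower bounds were 0. Of 5 other kinases and phosphatases of pyruvate dehydrogenase, the medians were 0.03 and 0.04, and 0 were past 0.3. The widest were Pdk1, at 5.56, 6.49 and 6.60 FPKM in a row that extends 484 kb beyond its gene, and Pdk3, at 16.2, 13.9 and 15.5 FPKM.

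**Figure D4:**
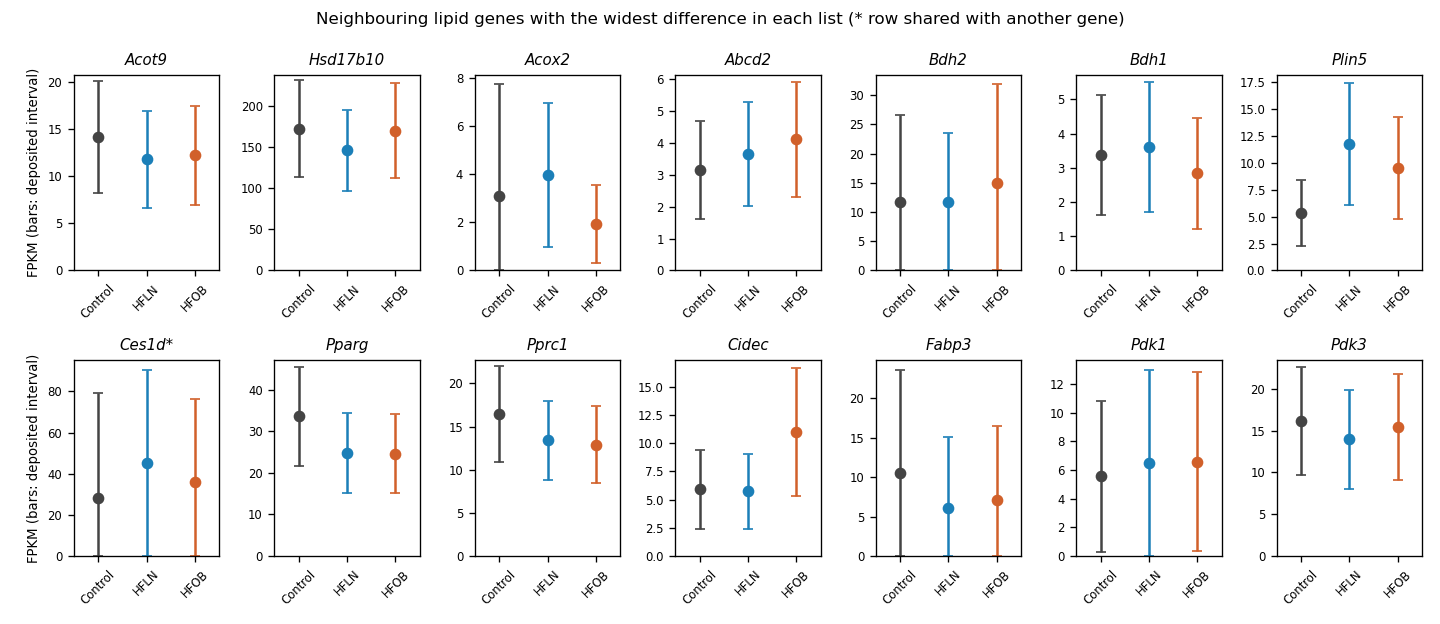
FPKM with deposited intervals in Control, HFLN and HFOB for the 2 genes of widest difference in each of the 7 further lists, each panel with its own axis; an asterisk marks a shared row. Plin5 (5.34, 11.8 and 9.54 FPKM) and Pparg (33.6, 24.8 and 24.6 FPKM) differ from Control in the same direction in both high-fat groups, and their intervals overlap.

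The tissue label was checked against markers of its cells. The 5 oocyte genes summed to 143, 145 and 151 FPKM and the 6 granulosa genes to 2147, 1780 and 1896 FPKM in Control, HFLN and HFOB. Theca and steroid-forming genes summed to 4296, 3649 and 3633 FPKM, luteal genes, mostly through the row of Akr1c18 and Akr1c12, to 2794, 1209 and 1606, and oviduct and cilia genes to 420, 518 and 341. Granulosa, theca and luteal sums were thus higher in Control than in HFLN, as the mitochondrial sum was. Most of each sum came from 1 row. Without Inha the granulosa sum was 434 in Control and 419 in HFLN. The Akr1c18 row extends 129 kb beyond the gene and its lower bounds were 0, and without it the luteal sum was 122 and 125. Without Cyp11a1, whose lower bounds were 0, the theca sum was 688 and 595, still lower in HFLN. Star, Lhcgr, Nr5a2, Prlr and Parm1 were higher in HFLN than in Control. The other genes of these lists, Amh, Foxl2, Fshr, Inha, Cyp19a1, Cyp17a1, Cyp11a1, Insl3, Akr1c18 and Ptgfr, were lower. The part of these cell types in the mitochondrial sum was not tested. Erythrocyte genes summed to 67.0, 39.7 and 53.4 FPKM, and macrophage genes to 115, 113 and 115. Most of the macrophage sum came from the row of Cd68, which is shared with Eif4a1 and extends 30.4 kb beyond the gene. Without that row the macrophage sum was 21.8, 22.4 and 23.0 FPKM. Skeletal muscle genes summed to under 1 FPKM in every group, with Myh4 at 0.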

How the data were processed

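Ovary RNA of 3 Control, 3 HFLN and 3 HFOB mice was sequenced from stranded mRNA libraries, per the labels' protocols. Cuffdiff 2.2.1.3, Cufflinks 2.2.1.0, TopHat2 2.1.0 and Trimmomatic 0.32.3, and the build mm10, were used per the submitters' processing notes. Which annotation, scaling, strand setting and confidence level were used is not given in the sources at hand. Genes that overlap on opposite strands may therefore share reads. The authors deposited 1 FPKM per gene row and group, with bounds and a status, per the file headers. Depth per library is unknown from these values.

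RefSeq identifiers in the rows were matched to symbols of GRCm38.p6, and 99.2% of 35531 matched. Coordinates are RefSeq gene spans, counted from 1. Rows with a symbol, the status OK and at least 1 FPKM in any group were used. Differences are log2 of (FPKM + 1), computed with Python 3.11.15, pandas 2.3.3 and numpy 2.4.6, and the calculation was tested on simulated data. No test was possible on 1 value per group. A linear model had been planned in case the table held values of single animals. All members are named, and of each further list the 2 genes with the widest difference. Plin2, Lpl, Hilpda, Plin1, Abhd5, G0s2, Vnn1 and Creb3l3, and the markers given by name, were named after their values were seen. The members and lists were chosen with earlier results of these data known. Other pseudocounts, minimums, thresholds, scalings, row choices and list summaries were tried.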

Additional observations from a re-analysis of the deposited data

How the results depend on the processing

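No paired analysis was possible because the table holds 1 value per group and no value of a single animal, and for the same reason no animal could be left out in turn. Scaling each group to the total of rows with a symbol moved the log2 ratios by 0.22 (HFLN against Control), 0.09 (HFOB against Control) and -0.13 (HFOB against HFLN). Low genes moved less, through the pseudocount. In that order, the medians became 0.159, 0.049 and -0.071 for mitochondrial members, 0.164, 0.091 and -0.104 for peroxisomal members, -0.011, 0.057 and 0.0094 for lipases, and 0.150, 0.058 and -0.082 for all members. Of the 36 members, 5, 8 and 29 were then lower, beside 14.0%, 29.5% and 81.5% of all rows, whose medians were 0.196, 0.070 and -0.122. Past 0.3, 3 were higher and 0 lower in HFLN than in Control, 0 were lower in HFOB than in Control, and 0 were higher and 1 lower in HFOB than in HFLN. The share of all rows past 0.3 under this scaling was not computed, so these counts have no background beside them. Scaling by the median ratio left 0 members lower by 0.3 in HFLN. At a threshold of 0.5, 0 members were lower in HFLN, 0 lower in HFOB and 0 higher in HFOB than in HFLN. Without shared rows, an alternative chosen after seeing the data, 0 members were higher by 0.3 in HFOB than in HFLN. A pseudocount of 0.1, a minimum of 5 FPKM or none, summed rows, means in place of medians, and Ech1 and Eci2 counted with either organelle moved none of the list medians by over 0.05 log2 and none of the counts by over 1.5 times. That tolerance is as large as many of the medians: the peroxisomal value for HFLN went from -0.049 to -0.0053 at a minimum of 5 FPKM, and with means the peroxisomal values turned from 0.00036 to -0.048 for HFOB against Control and from 0.021 to -0.028 for HFOB against HFLN. The width of the deposited intervals limits what the members can show.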

Other observations

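Several genes that answer to PPARA in liver were at or near 0 in the ovary of every group. Cyp4a10 and Cyp4a14, which oxidise the far end of fatty acids, stood at 0.0449 FPKM or less and 0.0239 FPKM or less. Fgf21, a liver hormone of fasting, stood at 0.180, 0.0284 and 0.0134 FPKM in Control, HFLN and HFOB, and Fabp1, the liver fatty-acid binding protein, was listed at 0 in Control and HFOB and at 0.132 FPKM in HFLN. Ucp1, the uncoupling protein of brown fat, stood at 0.0152 FPKM or less in every group, and Elovl3, a fatty-acid elongase of brown fat, at 0.0224 FPKM or less. Of the other 3 brown-fat markers read, Cox7a1 stood at 40.3, 30.7 and 29.2 FPKM. Cidea stood at 2.19, 3.38 and 1.36 FPKM, in a row that extends 54.3 kb beyond its gene, and Cox8b at 0.969, 1.73 and 2.32 FPKM. The lower bounds of Cidea and Cox8b were 0 in every group. By contrast Angptl4, a secreted inhibitor of lipoprotein lipase and a PPAR target in many tissues, stood at 148 FPKM (96.5 to 200.2) in Control, 122 (80.3 to 163) in HFLN and 131 (86.1 to 175) in HFOB, with overlapping intervals. These genes were chosen after their values were seen.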
